A study of Homo sapiens with 60 samples.

Results

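The expression of 34 genes of the peroxisome proliferator-activated receptor (PPAR) and fatty acid oxidation pathway was followed in HT29, a long-established cell line from a human colorectal adenocarcinoma, 24 h after plant extracts were added. The genes were taken by name, with earlier results of these data known: the 3 PPAR receptors, 4 of their classical target genes and 27 enzymes and carriers of fatty acid activation and oxidation. All 34 were found among the 60675 gene entries of the deposited table, and all 34 passed the filter on low counts that left 17089 genes for testing. ANGPTL4 passed it through the high doses of Cnidii Rhizoma and Astragali Radix, where its counts were highest. The 60 RNA-seq libraries fell into 25 groups. The vehicle group, dimethyl sulfoxide (DMSO), had 3 libraries. All extracts were made with 70% ethanol. Cnidii Rhizoma, Astragali Radix, Paeoniae Radix, Cinnamomi Cortex and Rehmanniae Radix Preparata were given at 20 µg/mL (low), 100 µg/mL (medium) and 500 µg/mL (high) with 3 libraries per dose. Angelicae Gigantis Radix was given at 12.8, 64 and 320 µg/mL with 2 libraries per dose, since the text on the series sets the top dose at the IC20, the concentration with 20% inhibition, where that lies under 500 µg/mL. The multi-herb formulas Samul-tang and Sagunja-tang had 1 library at each of 20, 100 and 500 µg/mL. The labels put the vehicle at 0.1% DMSO and the text on the series at 2%, and the solvent that accompanied each extract dose is not given in the sources used here. All libraries come from 1 cell line, and the labels do not say that the libraries of a group were separate cultures, so a p-value here measures no more than how far these libraries spread, and that spread may be technical.

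PPARs are nuclear receptors that bind fatty acids and their derivatives, pair with a retinoid X receptor and act at repeats of a short DNA half-site in genes of lipid handling. In fatty acid oxidation, acyl-CoA synthetases activate the fatty acid, the carnitine shuttle moves long chains into the mitochondrion, and a cycle of dehydrogenation, hydration, a further dehydrogenation and thiolysis shortens the chain while electron transfer flavoproteins pass its electrons to the respiratory chain. Peroxisomes run a parallel cycle on chains that mitochondria handle poorly, and colonic epithelium is known for drawing much of its energy from fatty acids.

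Promoter windows show where the receptors' half-site, AGGTCA on one strand or TGACCT on the other, occurs near the start sites of the genes that moved most. The windows span 250 bases before to 50 bases after a start site (RefSeq, GRCh38.p14), and 30 of the 34 genes had at least 1, giving 47 windows. EHHADH, DECR1, ETFDH and ACAA1 had none. FABP1 is shown because it carried the half-site in both orientations, ACSL5 because it was the other rising gene that carried one and the most abundant of the 34 genes per length, and PDK4 and ANGPTL4 because they were among the 3 genes with the largest rise and carried none. Capitals mark the half-site.
FABP1, chr2:88128013-88128312, minus strand: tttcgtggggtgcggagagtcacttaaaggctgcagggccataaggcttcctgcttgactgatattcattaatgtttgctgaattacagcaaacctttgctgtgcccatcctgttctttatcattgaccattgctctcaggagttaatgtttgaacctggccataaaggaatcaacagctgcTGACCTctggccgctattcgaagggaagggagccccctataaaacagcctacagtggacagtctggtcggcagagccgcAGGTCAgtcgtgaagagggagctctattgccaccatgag
ACSL5, chr10:112375018-112375317, plus strand: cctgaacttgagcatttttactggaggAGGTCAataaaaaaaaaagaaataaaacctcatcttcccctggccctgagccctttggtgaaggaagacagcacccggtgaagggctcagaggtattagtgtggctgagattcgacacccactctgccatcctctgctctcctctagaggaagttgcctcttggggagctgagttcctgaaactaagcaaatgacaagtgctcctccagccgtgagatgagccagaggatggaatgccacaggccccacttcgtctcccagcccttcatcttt
PDK4, chr7:95596467-95596766, minus strand: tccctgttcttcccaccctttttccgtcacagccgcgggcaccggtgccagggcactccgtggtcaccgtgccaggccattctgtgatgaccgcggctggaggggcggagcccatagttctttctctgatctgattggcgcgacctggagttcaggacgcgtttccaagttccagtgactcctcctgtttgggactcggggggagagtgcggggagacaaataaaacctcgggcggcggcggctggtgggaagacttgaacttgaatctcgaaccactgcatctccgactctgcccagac
ANGPTL4, chr19:8363905-8364204, plus strand: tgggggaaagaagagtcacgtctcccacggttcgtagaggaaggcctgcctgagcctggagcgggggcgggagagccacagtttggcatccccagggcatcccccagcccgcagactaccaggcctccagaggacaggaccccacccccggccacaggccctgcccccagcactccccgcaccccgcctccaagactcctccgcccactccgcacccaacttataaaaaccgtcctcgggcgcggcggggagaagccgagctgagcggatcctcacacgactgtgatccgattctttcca

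In FABP1 the sites lay 68 bases before the start site, written TGACCT, and 12 bases after it, written AGGTCA. In ACSL5 the site lay 223 bases before the start site. The half-site was present in 5 of the 47 windows, belonging to FABP1, PPARG and ACSL5, which is 10.6% against 13.8% of the 35116 windows in the table. The direct repeat AGGTCANAGGTCA, searched on both strands, occurred in 8 windows of the table and in 0 of the windows of these genes. At 8 of 35116 windows the exact repeat is too rare for its absence from 47 windows to tell anything. Inexact sites and sites outside the windows were not searched, so a window without a site does not show a gene without one. HADHA and HADHB, which encode the 2 subunits of the mitochondrial trifunctional protein, face away from each other with start sites 307 bases apart. The 194 bases that both of their windows cover held no half-site, and are shown because the pair shares them and neither gene was called at the high dose of Cnidii Rhizoma or Astragali Radix.
HADHA and HADHB shared stretch, chr2:26244689-26244882, plus strand: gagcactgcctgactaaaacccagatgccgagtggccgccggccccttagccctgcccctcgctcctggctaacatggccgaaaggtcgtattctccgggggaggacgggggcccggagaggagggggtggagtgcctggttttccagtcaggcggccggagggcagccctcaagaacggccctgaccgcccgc

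In vehicle-treated cells the pathway was expressed at very different levels. Levels are given as CPM, that is, counts scaled to a common library size, after trimmed mean of M values (TMM) scaling, and levels of different genes are compared as CPM per kilobase of exon. ACSL5, an acyl-CoA synthetase of the gut epithelium, was the highest at 63.6 ± 0.925 CPM per kb (SD, n = 3), followed by the enoyl-CoA hydratase ECHS1 at 58.3 ± 6.38 and the trifunctional protein subunit HADHA at 38.0 ± 0.652 CPM per kb. The lowest were FABP1 at 0.627 ± 0.203, the isomerase ECI2 at 0.106 ± 0.0188 and ANGPTL4 at 0.0183 ± 0.000719 CPM per kb. ANGPTL4 in vehicle rested on 1 count in each of the 3 libraries. Among the receptors PPARG was the highest at 23.5 ± 0.926 CPM per kb, against 6.73 ± 0.505 for PPARD and 4.45 ± 0.368 for PPARA. The cells thus contained RNA of all 3 receptors and of nearly the whole oxidation pathway, with all 4 classical targets at 1.48 CPM per kb or less.

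Library totals ranged from 17798492 to 31134188 counts, with 21247 to 24191 genes detected. The epithelial markers EPCAM, CDH1, KRT8, KRT18, KRT20, CDX2, VIL1 and CEACAM5 were present in every library, and the leukocyte markers PTPRC and CD3E, the fibroblast marker COL3A1 and the hepatocyte marker ALB stayed at or below 0.252 CPM, while the adipocyte marker ADIPOQ was at 0 in all libraries. The 3 Astragali Radix high-dose libraries stood apart. The mean correlation of each with the rest of its group (0.904 to 0.9354) was lower than that of any library of another group (0.9949 or more). Their mitochondrial share ran from 1.99% to 7.82% against 7.62% to 7.98% at the low dose, and their TMM factors were 0.773 to 0.839 against 1.017 to 1.026. Library 3 had the lowest of these mean correlations, 0.904. The lowest mitochondrial share, 1.99%, was that of library 1, while library 3 stood at 7.82%, within the low-dose range. Results of that group are therefore given from a fit of its own, and for some genes also without its library 3. Leaving out library 3 gave more called genes of the pathway, 22, than leaving out library 1 (11) or library 2 (16). The share of all genes called was 54.8%, 33.3% and 39.2% in that order, against 36.8% with all libraries of the group. Values without library 3 show dependence on that library, and whether it is a faulty one was not tested.

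Cnidii Rhizoma, the rhizome of a Cnidium species, gave the most uniform rise of the pathway. At 500 µg/mL against 20 µg/mL, 18 of the 34 genes were higher and 2 lower at an adjusted p under 0.05 (edgeR quasi-likelihood test, Benjamini-Hochberg over 17089 genes), while 11.5% of all genes tested were higher and 11.4% lower. The median log2 change of the 34 genes was 0.25 against -0.002 for all genes tested, and 30 of the 34 changes were positive against 49.3% of all genes. With library totals in place of TMM scaling the 34 genes gave 18 higher and 3 lower, and all genes 1378 higher and 2765 lower in place of 1958 and 1947. All 4 classical targets rose, as did 3 of 4 genes of activation, 2 of 3 of the carnitine shuttle, 2 of 4 acyl-CoA dehydrogenases, 2 of 3 of electron transfer, 2 of 4 of peroxisomal oxidation and 0 of 6 of the later mitochondrial steps. In the high-dose libraries the median range of a gene's log2 ratio to its low-dose mean was 0.107, and the widest was 1.872, for ECI2.

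FABP1, the liver-type fatty acid binding protein that carries fatty acids through the cytosol and to PPARA, stood at 3.12, 2.41 and 2.64 CPM in the 3 low-dose libraries, at 4.21, 3.73 and 3.63 at the medium dose and at 13.2, 12.9 and 11.7 at the high dose. Every high-dose library lay above every other Cnidii Rhizoma library, and the vehicle libraries stood at 1.62, 1.02 and 2.01 CPM. The log2 change from low to high dose was 2.21 ± 0.13 (SE; edgeR adjusted p = 3.4e-18). PDK4, the kinase that switches off pyruvate dehydrogenase and so spares glucose when fat is burned, rose from 6.5, 6.45 and 6.76 CPM at the low dose through 8.38, 11.3 and 9.09 at the medium dose to 22.3, 22.8 and 21.2 at the high dose. The doses did not overlap, and vehicle libraries stood at 6.47, 6.73 and 6.8 CPM. The log2 change from low to high was 1.75 ± 0.09 (edgeR adjusted p = 1.7e-20), and from low to medium 0.55 ± 0.10 (adjusted p = 0.00037). Both contrasts share the low-dose libraries.

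ANGPTL4, a secreted inhibitor of lipoprotein lipase and a sensitive PPAR target, was close to its detection limit at the low dose, with 3, 6 and 0 counts, and had 43, 44 and 41 counts at the high dose, or 1.86, 1.68 and 1.59 CPM. The summed counts of 128 against 9 gave a ratio of 14.9 after scaling, with a 95% exact interval of 7.63 to 33.4 that covers counting error only. The edgeR log2 change was 3.85 ± 0.53 (adjusted p = 1.4e-07), and the medium dose, at 0.112, 0.0777 and 0.277 CPM, overlapped the low dose. Without low-dose library 3, which had 0 counts, the high-dose change was 3.28, and without low-dose library 2, which had 6, it was 4.81. PLIN2, the protein that coats lipid droplets, rose from 6.65, 7.42 and 7.43 CPM to 8.49, 8.2 and 8.64 and then 12.0, 12.8 and 12.4 CPM. The high-dose change was 0.79 ± 0.09 (edgeR adjusted p = 9.3e-10) and the medium-dose change of 0.24 ± 0.09 did not pass (adjusted p = 0.18). Ranked by log2 change among the 17089 genes in the high-dose comparison, ANGPTL4 was 29, FABP1 80, PDK4 126 and PLIN2 481. ANGPTL4 passed the filter on low counts through the high doses of Cnidii Rhizoma and Astragali Radix. Its p-values and rank in comparisons with those groups are therefore not independent of its rise there.

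**Figure D1:**
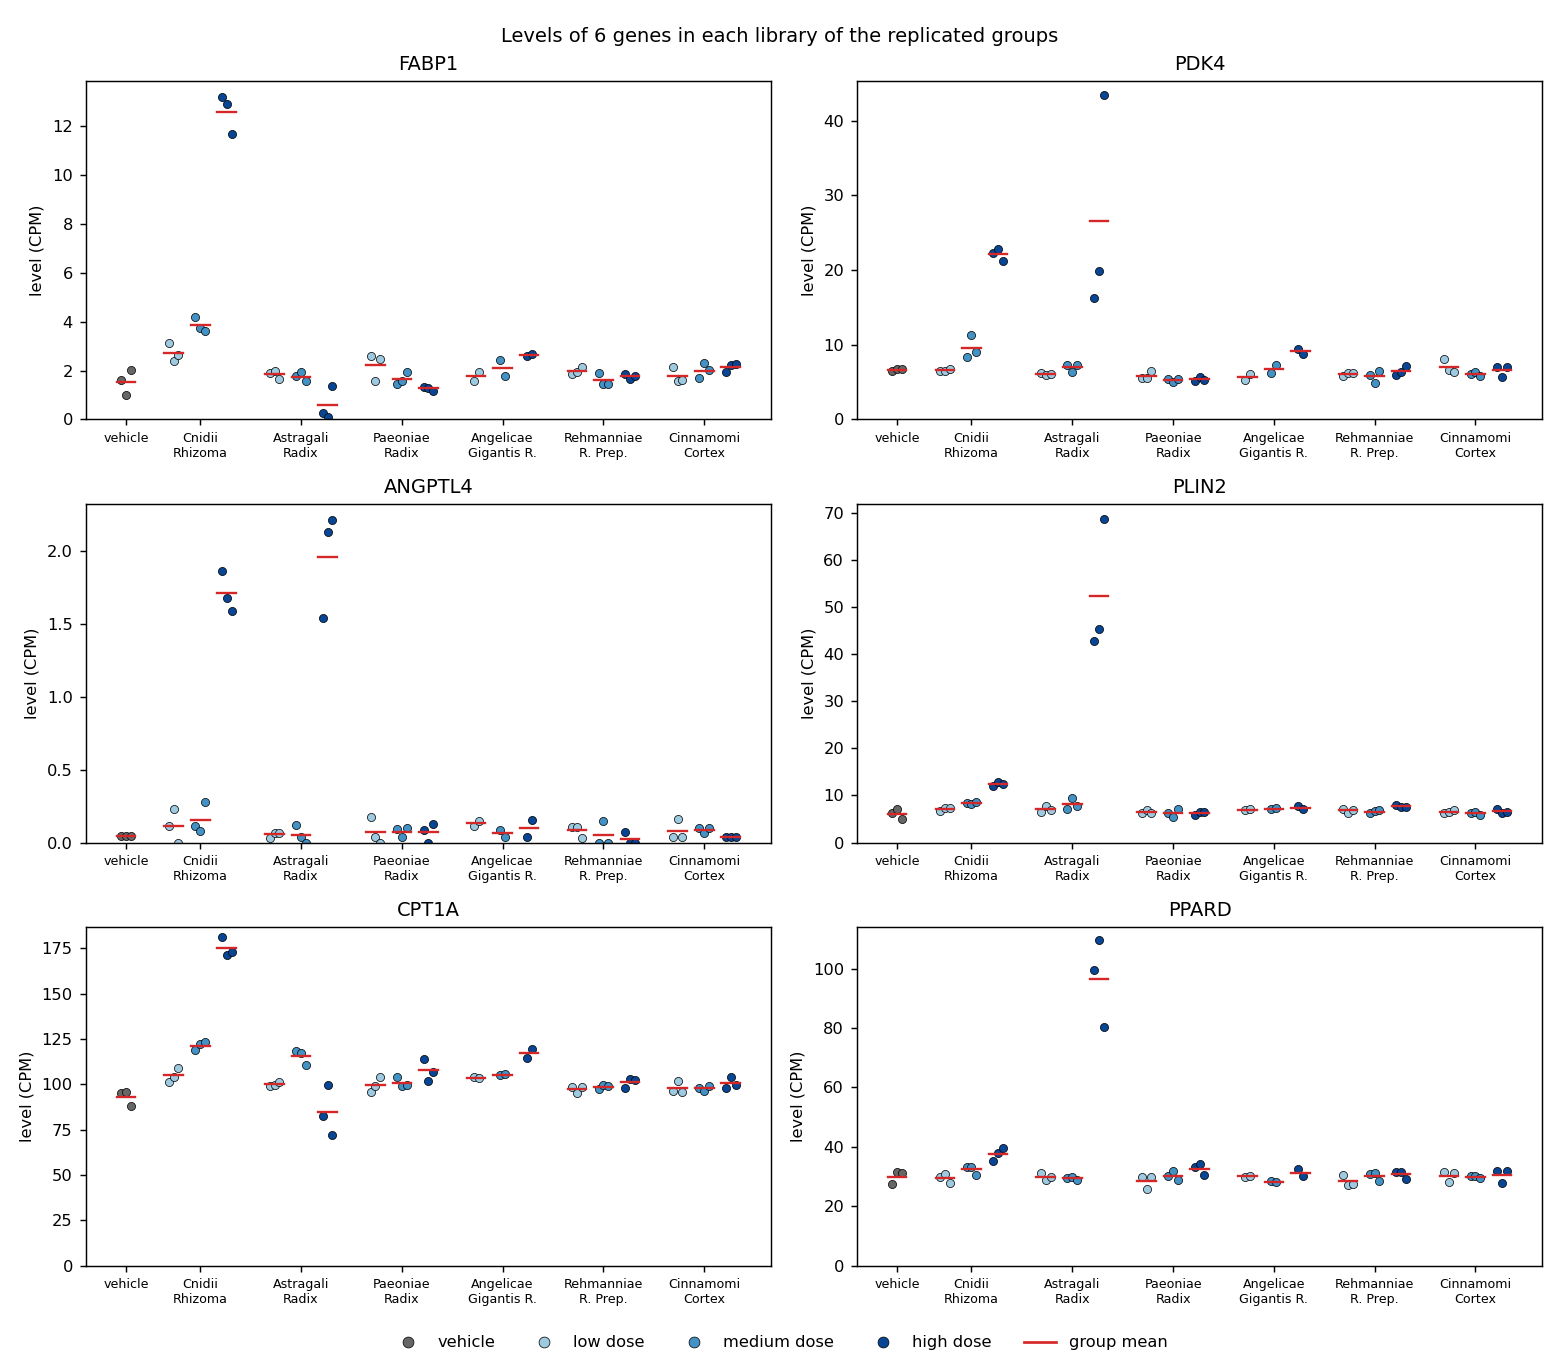
Level of FABP1, PDK4, ANGPTL4, PLIN2, CPT1A and PPARD in CPM (vertical axes, linear from 0) for each library (points) of the 19 replicated groups (horizontal axis), with the group mean as a red line. The high dose of Cnidii Rhizoma stands above its lower doses for FABP1 (11.7 to 13.2 CPM), PDK4 (21.2 to 22.8 CPM) and CPT1A, and the high dose of Astragali Radix holds the highest PLIN2 (42.7 to 68.6 CPM) and PPARD libraries.

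The receptors moved little and not together under Cnidii Rhizoma. PPARA, the receptor best known for driving oxidation genes in the liver, went from 56.5, 56.4 and 56.9 CPM to 65.5, 68.2 and 68.5, a log2 change of 0.25 ± 0.05 (edgeR adjusted p = 0.00011). PPARD, the isoform with broad expression that includes the colon, went from 30.0, 30.9 and 28.0 CPM to 35.3, 37.9 and 39.5, a change of 0.34 ± 0.06 (adjusted p = 1.6e-05). PPARG, the isoform known from fat cells and also abundant in colonic epithelium, fell from 99.9, 103.4 and 100.1 CPM to 82.7, 85.5 and 85.9, a change of -0.26 ± 0.04 (adjusted p = 1.4e-06). In each case the 2 doses did not overlap, and the change was smaller than that of any of the 4 targets.

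RNA of 3 of the 4 acyl-CoA synthetases and of 2 of the 3 carnitine shuttle genes rose. Of the synthetases, ACSL5 rose from 269.3, 282.2 and 271.3 CPM to 384.3, 374.9 and 383.8, a log2 change of 0.47 ± 0.03 (edgeR adjusted p = 6.8e-20). ACSL1 rose by 0.39 ± 0.05 (adjusted p = 3.6e-09) and ACSL3 by 0.19 ± 0.03 (adjusted p = 1.4e-05), while ACSL4, which prefers arachidonic acid, gave -0.06 ± 0.04 (adjusted p = 0.24). CPT1A, the carnitine acyltransferase of the outer mitochondrial membrane and the rate-limiting step of long-chain oxidation, stood at 101.6, 104.3 and 109.1 CPM at the low dose, 118.8, 122.3 and 123.2 at the medium dose and 181.2, 171.5 and 172.8 at the high dose. The 3 doses were fully separated. The CPT1A change was 0.74 ± 0.04 at the high dose (edgeR adjusted p = 4.7e-21), the smallest p among the 34 genes, and 0.21 ± 0.04 at the medium dose (adjusted p = 0.00032). The carnitine carrier SLC25A20 rose by 0.29 ± 0.08 (adjusted p = 0.0047), a call that was lost without high-dose library 3, where the change was 0.20. CPT2, which reforms the acyl-CoA inside the mitochondrion, stood at 28.0 ± 0.202 CPM at the low dose and 28.8 ± 1.31 at the high dose (SD, n = 3; adjusted p = 0.67).

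Of the genes of the first mitochondrial step and its electron acceptors, 2 of the 4 acyl-CoA dehydrogenases and 2 of the 3 electron transfer genes rose, and the others did not pass. ACADVL, the dehydrogenase for very long chains, went from 173.5, 167.5 and 168.4 CPM to 229.9, 230.1 and 235.5, a log2 change of 0.45 ± 0.03 (edgeR adjusted p = 1.4e-16). ACADM, the medium-chain enzyme, rose by 0.28 ± 0.05 (adjusted p = 4.6e-05), whereas the short-chain enzyme ACADS gave 0.38 ± 0.15 (adjusted p = 0.062) and ACADSB, for short branched chains, 0.14 ± 0.12 (adjusted p = 0.45). ETFA and ETFB, the subunits of the electron transfer flavoprotein, rose by 0.38 ± 0.06 (adjusted p = 4.8e-06) and 0.24 ± 0.06 (adjusted p = 0.0022). ETFDH, which passes their electrons to ubiquinone, gave 0.15 ± 0.10 (adjusted p = 0.29).

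The later steps of the mitochondrial cycle, namely HADHA, HADHB, ECHS1, HADH, ACAA2 and ACAT1, had a median log2 change of 0.04. HADHA stood at 168.9 ± 2.83 CPM at the low dose and 170.9 ± 3.39 at the high dose, and HADHB at 42.2 ± 1.69 and 44.7 ± 1.33 CPM (SD, n = 3), with edgeR adjusted p = 0.77 and 0.22. HADH, the short-chain hydroxyacyl-CoA dehydrogenase, fell by 0.13 ± 0.04 on the log2 scale (adjusted p = 0.026). That call was lost in 6 of 12 other analyses, among them those without high-dose library 1, low-dose library 2 or high-dose library 3, over which the change ran from -0.18 to -0.09. Among the isomerases and the reductase for unsaturated chains, ECI1 and DECR1 did not pass, with 0.01 ± 0.09 (adjusted p = 0.98) and -0.003 ± 0.08 (adjusted p = 0.99). ECI2 passed with 1.10 ± 0.40 (adjusted p = 0.037), but its libraries at 0.994, 0.573 and 0.271 CPM overlapped the low dose at 0.338, 0.311 and 0.189. Its summed counts were 45 against 22, and the call was lost in 8 of 12 other analyses, including those without low-dose library 2 or 3 and without high-dose library 1 or 2.

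Of the 4 peroxisomal genes, 2 rose. EHHADH, the bifunctional enzyme of the inducible peroxisomal cycle and a classical PPARA target, went from 7.85, 10.3 and 10.4 CPM to 12.3, 14.6 and 14.5, a log2 change of 0.54 ± 0.10 (edgeR adjusted p = 2.4e-05). HSD17B4, its counterpart for branched and very long chains, went from 148.0, 154.6 and 158.4 CPM to 188.8, 185.9 and 191.7, a change of 0.30 ± 0.03 (adjusted p = 3.1e-10). ACOX3, an oxidase for branched chains, gave 0.25 ± 0.12 (adjusted p = 0.15) and the thiolase ACAA1 gave 0.04 ± 0.06 (adjusted p = 0.68). Across the 20 called genes, 13 kept their call in every other analysis that gave a value, and ECI2 was the only one whose high- and low-dose libraries overlapped. Neither number was worked out for all genes tested, so they do not show a trait particular to these genes. The summed level of the epithelial markers was 9370.2 to 9777.4 CPM in the high-dose and 11589.0 to 11994.6 CPM in the low-dose libraries, and that of the markers of other cells 2.52 to 2.85 and 2.74 to 3.3 CPM. Their part in these changes was not tested, nor can a change in RNA per cell be told apart from a change in the make-up of the cells in bulk RNA.

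At 100 µg/mL Cnidii Rhizoma raised 3 of the 34 genes, PDK4, CPT1A and ACSL5, and lowered 0, beside 1.41% of all genes higher and 1.52% lower. With library totals the 34 genes gave the same counts, and all genes 156 higher and 339 lower in place of 241 and 260. ACSL5 changed by 0.14 ± 0.03 on the log2 scale (edgeR adjusted p = 0.00044). FABP1 at the medium dose gave 0.50 ± 0.15 and missed the threshold with adjusted p = 0.052, although its 3 medium-dose libraries lay above the 3 low-dose libraries. The median change of the 34 genes at this dose was 0.04, and 27 of them were positive against 48.6% of all genes.

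**Figure D2:**
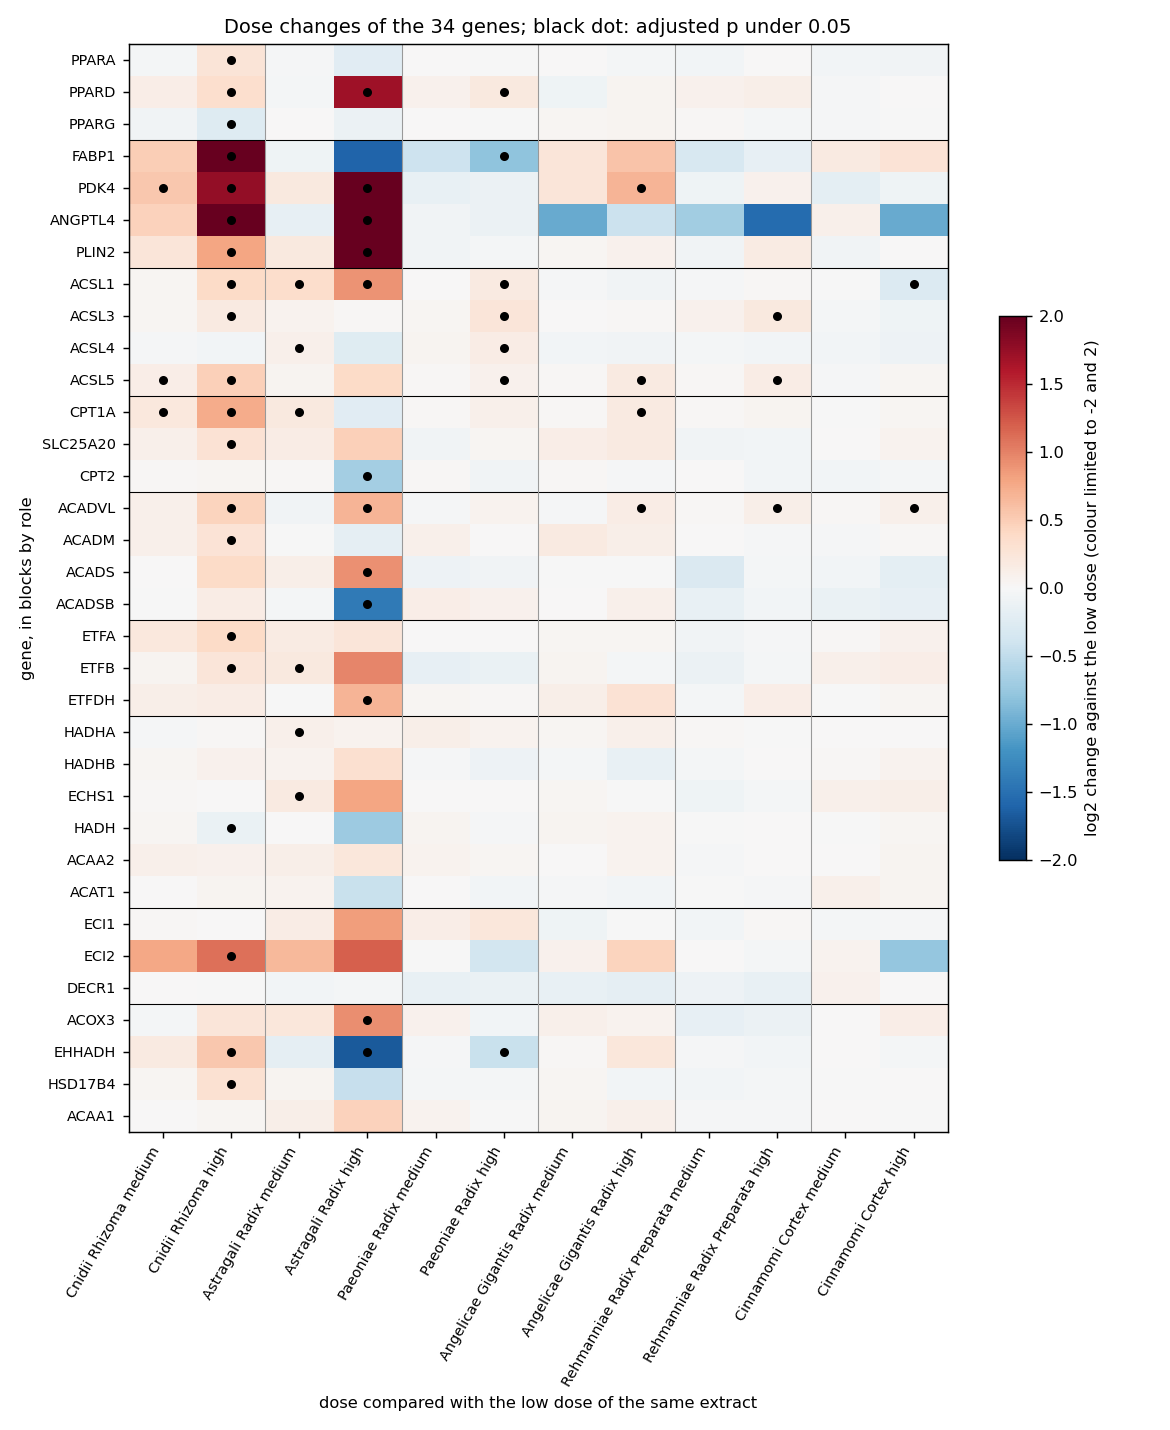
Log2 change of each of the 34 genes (vertical axis, grouped by role) in each of the 12 dose comparisons (horizontal axis), as colour limited to -2 and 2, with a black dot where the edgeR adjusted p was under 0.05. The Cnidii Rhizoma high-dose column holds 20 dots and the Astragali Radix high-dose column 12. ANGPTL4 rested on at most 8 counts per library outside the high doses of these 2 extracts, so its colours elsewhere reflect few counts.

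The rise under Cnidii Rhizoma was tested directly against the dose changes of the 3 extracts with the same doses and libraries of comparable quality, Paeoniae Radix, Rehmanniae Radix Preparata and Cinnamomi Cortex. The difference between its high-minus-low change and their mean change was called for 18 of the 34 genes, 17 in the positive and 1 in the negative direction, where 8.19% of all genes tested were positive and 8.7% negative. The 4 classical targets differed by 4.74 ± 0.85 for ANGPTL4 (edgeR adjusted p = 3.5e-05), 2.44 ± 0.17 for FABP1 (adjusted p = 8.8e-16), 1.79 ± 0.11 for PDK4 (adjusted p = 1.3e-17) and 0.75 ± 0.10 for PLIN2 (adjusted p = 3.2e-07). In these 3 extracts ANGPTL4 had 0 to 5 counts per library at the low and high doses, and its difference ran from 4.17 to 5.70 over the other analyses. CPT1A differed by 0.67 ± 0.04 (edgeR adjusted p = 5e-17) and EHHADH by 0.72 ± 0.12 (adjusted p = 5.2e-06). PPARG was the gene in the negative direction, at -0.24 ± 0.04 (adjusted p = 8.7e-05), and PPARA and PPARD were in the positive direction at 0.28 ± 0.06 (adjusted p = 0.00039) and 0.24 ± 0.07 (adjusted p = 0.013). The call of PPARD was lost when library 3 of either Cnidii Rhizoma dose was left out, over a range of 0.20 to 0.28, that of ECI2 without library 1 of the high or library 3 of the low dose, over 0.99 to 1.86, and that of SLC25A20 without Cnidii Rhizoma low-dose library 1 or high-dose library 3 or Paeoniae Radix low-dose library 3, over 0.19 to 0.34. SLC25A20 was also lost with library totals, with DESeq2, with only the groups compared and with all 54 replicated libraries, and that last fit also ended the calls of PPARA, PPARD, PPARG, ACSL1, ETFB and ECI2. None of the 6 genes of the later mitochondrial steps was called, their differences lying between -0.14 and 0.09.

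Astragali Radix, the root of an Astragalus species, moved the pathway in both directions at 500 µg/mL. Against its low dose, 9 of the 34 genes were higher and 3 lower (edgeR on these 6 libraries), beside 20.2% of all genes higher and 16.6% lower, so the share of these genes was close to that of all genes. The median log2 change was 0.29 against 0.001 for all genes, and 21 of 34 changes were positive. The lipid droplet gene PLIN2, the secreted lipase inhibitor ANGPTL4, PDK4 and the receptor PPARD rose, while CPT2, ACADSB and EHHADH fell. Replicates spread widely: the median range of a gene's log2 ratio to the low-dose mean was 0.694, and 9 genes had libraries on both sides of it. With library totals in place of TMM all genes shifted by -0.36 on the log2 scale, and 4 of the 34 genes were higher and 8 lower, with 2154 genes higher and 4796 lower in place of 3450 and 2844. The directions of the 12 changes were the same under both scalings, but ACSL1, ACADVL, ACADS, ETFDH and ACOX3 lost their call with library totals.

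PLIN2 stood at 6.56, 7.68 and 7.02 CPM at the low dose, 7.17, 9.54 and 7.75 at the medium dose and 42.7, 45.4 and 68.6 at the high dose. The high-dose libraries were far above all others, and the log2 change was 2.91 ± 0.25 (edgeR adjusted p = 0.00054). ANGPTL4 had 1, 2 and 2 counts at the low dose and 23, 38 and 35 at the high dose, a ratio of summed counts of 35.1 after scaling with a 95% exact counting interval of 14.5 to 110.5. Its fitted log2 change was 5.01 ± 0.43 (adjusted p = 0.00054), which rests on few low-dose counts. PDK4 went from 6.22, 5.91 and 6.11 CPM to 16.3, 19.9 and 43.4, so that library 3 held more than the other two. Its change was 2.16 ± 0.40 (edgeR adjusted p = 0.0064), and 1.59 without high-dose library 3 (adjusted p = 0.00016). PPARD went from 31.3, 28.8 and 30.0 CPM to 99.7, 109.7 and 80.4, the highest levels of this receptor in any of the 60 libraries, with a change of 1.70 ± 0.15 (adjusted p = 0.00059).

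FABP1 split the high-dose libraries, at 0.268, 0.112 and 1.39 CPM against 1.91, 1.97 and 1.66 at the low dose. All 3 lay below the low dose, with 28 counts against 164 in sum and a ratio of 0.312 (95% exact counting interval 0.201 to 0.468), yet the log2 change of -1.61 ± 0.75 did not pass (edgeR adjusted p = 0.13). Without high-dose library 3 it was -3.28 with adjusted p = 0.00073. PPARA stood at 50.2, 65.2 and 26.9 CPM and PPARG at 55.5, 101.3 and 113.2 CPM, and neither passed (adjusted p = 0.56 and 0.77). CPT1A stood at 82.7, 99.9 and 72.0 CPM against 99.4, 99.9 and 101.1 at the low dose, a change of -0.23 ± 0.15 (adjusted p = 0.27). For PPARA and PPARG the high-dose libraries lay on both sides of the low dose, and for CPT1A 1 of them matched it.

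Of the oxidation enzymes, 3 fell under the high dose of Astragali Radix. EHHADH went from 8.67, 10.1 and 9.53 CPM to 2.28, 3.71 and 2.71, a log2 change of -1.68 ± 0.22 (edgeR adjusted p = 0.002). ACADSB went from 5.15, 6.69 and 5.22 CPM to 1.34, 2.64 and 2.33, a change of -1.41 ± 0.30 (adjusted p = 0.011), and CPT2 from 28.6, 29.3 and 28.0 CPM to 15.5, 19.7 and 17.9, a change of -0.68 ± 0.15 (adjusted p = 0.014). In each the doses were separate. Those that rose were ACOX3 by 0.92 ± 0.20 (adjusted p = 0.012), ACADS by 0.91 ± 0.23 (adjusted p = 0.021), ACSL1 by 0.90 ± 0.29 (adjusted p = 0.044), ACADVL by 0.68 ± 0.17 (adjusted p = 0.021) and ETFDH by 0.68 ± 0.17 (adjusted p = 0.02). PPARD, PDK4, ANGPTL4, PLIN2 and EHHADH kept their calls in all 11 other analyses.

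The other 7 calls depended on single libraries. Of them, ACSL1, ACADVL, ACADS and ETFDH were also lost without the filter on low counts. Without low-dose library 1, 2 or 3 the number of called genes was 6, 5 and 7. Without high-dose library 1 or 2 it was 11 and 16, and without high-dose library 3 it was 22, with 15 higher and 7 lower. The share of all genes called moved likewise, from 36.8% to 18.3%, 17.2% and 18.6% without the low-dose libraries. It was 33.3%, 39.2% and 54.8% without high-dose library 1, 2 or 3. The losses and gains were therefore not particular to these genes. CPT2, ACADVL, ACADS, ETFDH and ACSL1 were lost when any 1 of the low-dose libraries was left out, ACOX3 without low-dose library 1 or 2, ACADSB without low-dose library 2, and ACSL1 also without high-dose library 1 or 2. Over all 11 other analyses ACSL1 ran from 0.57 to 1.19, ACADVL from 0.33 to 0.78, ACADS from 0.55 to 1.07, ETFDH from 0.33 to 0.82, ACOX3 from 0.57 to 1.07, ACADSB from -1.78 to -1.15 and CPT2 from -1.04 to -0.57. HADH, at 20.6, 25.7 and 59.9 CPM against 59.6, 60.2 and 61.0 at the low dose, was not called (-0.73 ± 0.41, edgeR adjusted p = 0.2) and without high-dose library 3 gave -1.37 (adjusted p = 0.00026). ACSL5 likewise went from 0.38 (adjusted p = 0.14) to 0.55 (adjusted p = 0.0041).

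**Figure D3:**
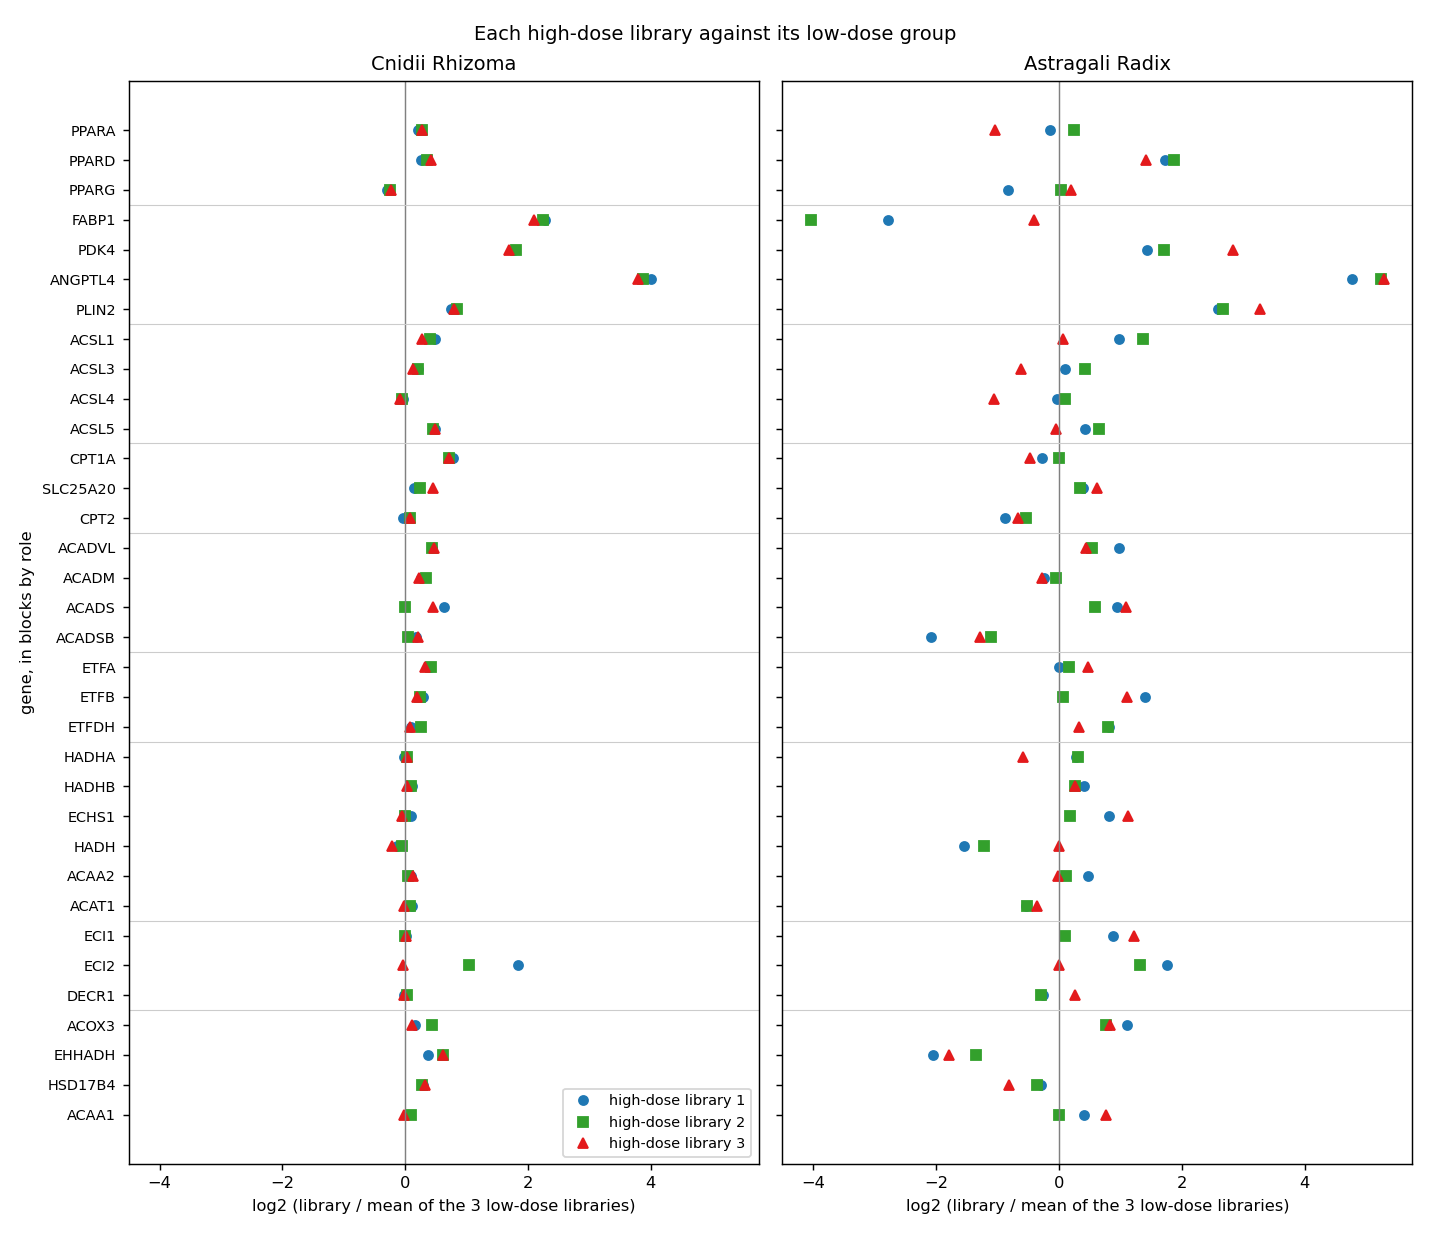
Log2 ratio of each high-dose library to the mean of its low-dose libraries (horizontal axis) for the 34 genes (vertical axis), for Cnidii Rhizoma and Astragali Radix, with 1 point per library. The median range of a gene's points is 0.107 in Cnidii Rhizoma, where the widest is ECI2 at 1.872 and 8 genes have points on both sides of 0, and 0.694 in Astragali Radix, where the widest is FABP1 at 3.627 and 9 genes do.

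Beside these changes, the summed level of the epithelial markers in Astragali Radix was 11524.0 to 11848.9 CPM at the low dose and 16481.6 to 23169.4 CPM at the high dose, and that of the markers of other cells 2.72 to 3.28 CPM and 6.62 to 12.1 CPM. The latter sum comes largely from PECAM1 and COL1A1, which reached at most 3.01 and 8.64 CPM in any library, and PTPRC, CD3E and COL3A1 were at or near 0. The part of these shifts and of the mitochondrial share in the pathway's changes was not tested.

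At 100 µg/mL Astragali Radix raised 6 of the 34 genes and lowered 0, beside 6.89% of all genes higher and 8.98% lower. ACSL1 rose from 58.8, 58.6 and 61.4 CPM to 78.2, 74.9 and 75.0, a log2 change of 0.35 ± 0.04 (edgeR adjusted p = 1.8e-07). CPT1A rose from 99.4, 99.9 and 101.1 CPM to 118.5, 117.4 and 111.0, a change of 0.20 ± 0.04 (adjusted p = 8.8e-05). ETFB, ECHS1, ACSL4 and HADHA rose by 0.20, 0.17, 0.10 and 0.10 with adjusted p between 0.017 and 0.034. CPT1A held its call in every other analysis and the remaining 5 did not. The 4 classical targets did not pass at this dose, with FABP1 at -0.08 ± 0.18 (adjusted p = 0.82), PDK4 at 0.19 ± 0.10 (adjusted p = 0.21) and PLIN2 at 0.20 ± 0.09 (adjusted p = 0.14). With library totals 2 of the 34 genes were higher and 1 lower, and 309 genes were higher and 2449 lower in place of 1178 and 1535.

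The high-dose changes of Astragali Radix and Cnidii Rhizoma, given at the same doses, were compared directly in the 12 libraries of their high and low doses. The difference, Astragali Radix minus Cnidii Rhizoma, was called for 12 of the 34 genes, 4 positive and 8 negative, where 18.2% of all genes were positive and 16.6% negative. FABP1 differed by -3.86 ± 0.61 (edgeR adjusted p = 0.00065), CPT1A by -0.97 ± 0.16 (adjusted p = 0.0008) and EHHADH by -2.22 ± 0.25 (adjusted p = 6.2e-05). ACADSB, CPT2, HSD17B4, ACAT1 and ACADM differed in the same direction by -1.56, -0.73, -0.76, -0.51 and -0.46, with adjusted p from 0.0019 to 0.017. PLIN2 differed by 2.10 ± 0.24 (adjusted p = 7.2e-05) and PPARD by 1.35 ± 0.16 (adjusted p = 0.00012), followed by ECHS1 at 0.75 and ACOX3 at 0.67 (adjusted p = 0.044 and 0.035). PDK4 and ANGPTL4, called in both extracts, gave differences of 0.38 ± 0.40 (adjusted p = 0.49) and 1.17 ± 0.87 (adjusted p = 0.32). These misses do not show that the extracts acted alike on them, since each standard error is close to its difference.

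Of these 12 differences, 9 kept their call in all 17 other analyses. The size of the FABP1 difference rested on single libraries, at -5.50 without Astragali Radix high-dose library 3 and -3.33 without high-dose library 2. ECHS1 lost it in 12 of them, over a range of 0.44 to 0.98, and ACOX3 in 11, over 0.37 to 0.82. Both were lost without any of several single libraries of either extract, Astragali Radix high-dose library 1 and low-dose libraries 1 and 2 among them. ACADM lost its call without Cnidii Rhizoma high-dose library 2 or Astragali Radix low-dose library 2, over -0.76 to -0.42. With library totals the genes shifted by -0.30 and the split was 2 positive and 9 negative among the 34 genes, and 1977 and 4596 among all genes in place of 3111 and 2845. Both this comparison and the one against 3 extracts use the Cnidii Rhizoma libraries.

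**Figure D4:**
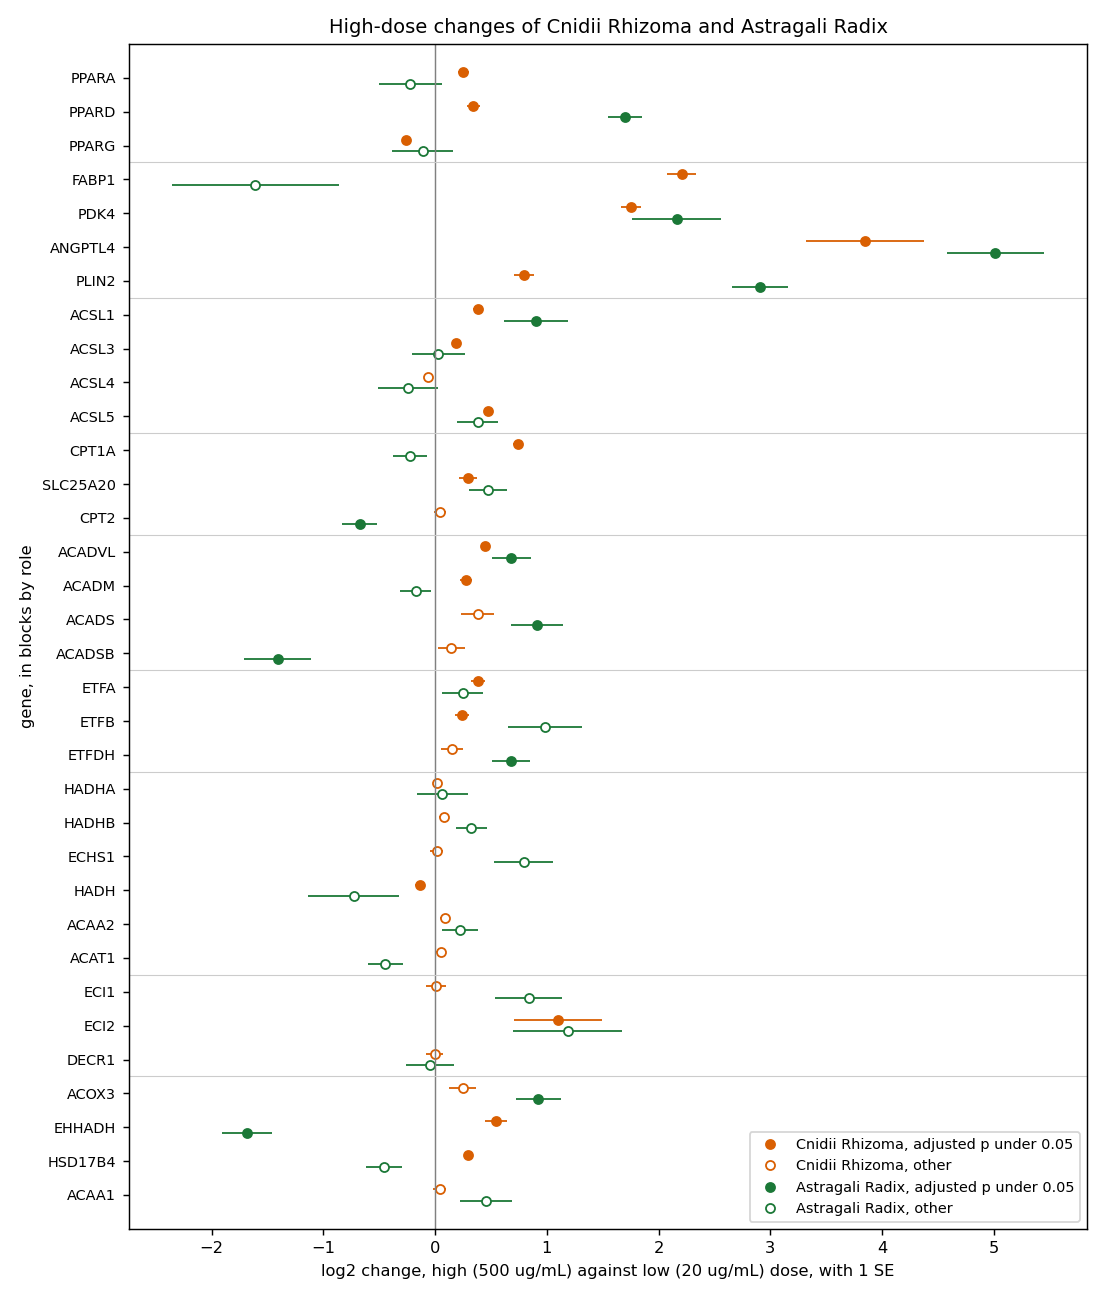
Log2 change from low to high dose (horizontal axis, with bars of 1 SE) of the 34 genes (vertical axis, grouped by role) for Cnidii Rhizoma and Astragali Radix. Filled symbols mark an edgeR adjusted p under 0.05. PLIN2 and PPARD lie further right in Astragali Radix, and FABP1, CPT1A and EHHADH lie right of 0 in Cnidii Rhizoma and left of 0 in Astragali Radix, where EHHADH is the filled one of the 3.

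Paeoniae Radix, a peony root, lowered FABP1 and EHHADH and raised acyl-CoA synthetases at the high dose. Of the 34 genes 5 were higher and 2 lower, beside 5.78% and 3.52% of all genes. FABP1 went from 2.6, 1.59 and 2.49 CPM to 1.35, 1.3 and 1.16, a log2 change of -0.81 ± 0.19 (edgeR adjusted p = 0.0033), and EHHADH from 8.02, 9.33 and 8.44 CPM to 5.75, 5.78 and 7.53, a change of -0.44 ± 0.11 (adjusted p = 0.0072). Both groups were separate. ACSL3, which activates fatty acids at the endoplasmic reticulum and lipid droplets, rose from 221.0, 223.8 and 214.0 CPM to 266.4, 254.6 and 260.2, a change of 0.24 ± 0.03 (adjusted p = 5e-07). ACSL1, ACSL4, ACSL5 and PPARD rose by 0.18, 0.15, 0.09 and 0.19, with adjusted p between 0.0036 and 0.04. PDK4 gave -0.12 ± 0.11 (adjusted p = 0.59), PLIN2 -0.05 ± 0.10 (adjusted p = 0.85) and CPT1A 0.11 ± 0.04 (adjusted p = 0.059). None of the 7 calls held in every other analysis. EHHADH was lost without high-dose library 1 or 2 or low-dose library 2, over -0.58 to -0.37. Without high-dose library 1 the count was 4, with 5.34% of all genes called in place of 9.3%. With library totals 3 genes were higher and 2 lower, with 645 genes higher and 806 lower in place of 988 and 601.

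Angelicae Gigantis Radix, with 2 libraries per dose and a high dose of 320 µg/mL, raised 4 of the 34 genes and lowered 0, beside 0.62% of all genes higher and 0.497% lower. PDK4 went from 5.29 and 6.1 CPM at 12.8 µg/mL to 6.18 and 7.32 at 64 µg/mL and 9.45 and 8.83 at 320 µg/mL. The high-dose libraries lay above all others, and the log2 change was 0.68 ± 0.12 (edgeR adjusted p = 0.00085). ACSL5 rose from 264.4 and 265.9 CPM to 301.7 and 299.6, a change of 0.18 ± 0.03 (adjusted p = 0.00045). CPT1A rose by 0.18 ± 0.05 (adjusted p = 0.037) and ACADVL by 0.15 ± 0.04 (adjusted p = 0.022), and both calls were lost in 8 of 10 other analyses, among them the omission of any 1 library. FABP1 stood at 1.59 and 1.94 CPM at the low dose and 2.58 and 2.7 at the high dose, a change of 0.58 ± 0.21 that did not pass (adjusted p = 0.2). With library totals 2 of the 34 genes were called, and 71 genes were higher and 114 lower in place of 106 and 85. Leaving out high-dose library 2, high-dose library 3 or low-dose library 3 left 2 called genes and leaving out low-dose library 2, which ended the call of PDK4, left 1, in fits where the lone library of a dose is assumed to vary like the other groups. The doses differ from those of the other extracts, so its values were not compared with theirs.

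Rehmanniae Radix Preparata raised 3 of the 34 genes at the high dose and lowered 0, beside 0.854% of all genes higher and 0.562% lower. ACSL3 rose from 229.7, 231.3 and 232.5 CPM to 267.6, 254.3 and 268.2, a log2 change of 0.19 ± 0.03 (edgeR adjusted p = 0.00026), and ACSL5 from 256.3, 248.9 and 270.1 CPM to 281.0, 289.5 and 288.5, a change of 0.15 ± 0.03 (adjusted p = 0.00029). ACADVL changed by 0.11 ± 0.03 (adjusted p = 0.045), a call that was lost in 10 of 12 other analyses, among them the omission of any 1 library, over 0.09 to 0.12. The classical targets did not pass, with FABP1 at 1.88, 1.94 and 2.16 CPM at the low and 1.88, 1.67 and 1.8 CPM at the high dose. Cinnamomi Cortex, a cinnamon bark, raised 1 gene and lowered 1, beside 2.89% of all genes higher and 2.75% lower. ACSL1 fell from 59.4, 59.9 and 57.5 CPM to 47.8, 48.9 and 49.4, a change of -0.28 ± 0.05 (edgeR adjusted p = 0.00025), opposite in sign to its rise under Cnidii Rhizoma, Astragali Radix and Paeoniae Radix. ACADVL went from 162.3, 164.3 and 164.2 CPM to 177.2, 173.9 and 176.0, a change of 0.10 ± 0.03 (adjusted p = 0.032). This call was likewise lost in 10 of 12 other analyses, among them the omission of any 1 library, over 0.09 to 0.11. With library totals Rehmanniae Radix Preparata had 2 genes higher and 0 lower among the 34, with 91 and 125 of all genes in place of 146 and 96. Cinnamomi Cortex then had 0 higher and 3 lower, with 258 and 583 of all genes in place of 494 and 470.

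At the medium dose these 4 extracts gave 0 calls among the 34 genes with edgeR. For Paeoniae Radix 0.246% of all genes were higher and 0.164% lower, and 3 of the 34 genes had an unadjusted p under 0.05 (1 higher, 2 lower). HADHA was called with DESeq2 and when the replicate number was added as a block. Beside HADHA, DESeq2 gave an adjusted p for only 15 of the 34 genes in that comparison. For Angelicae Gigantis Radix, Rehmanniae Radix Preparata and Cinnamomi Cortex 0% of all genes were higher and 0% lower, 1 of the 34 genes in each had an unadjusted p under 0.05, and DESeq2 called 0 of them.

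The 2 formulas had 1 library per dose, so their differences have no replicate check. Samul-tang at 500 µg/mL against 20 µg/mL had 2 of the 34 genes at least 1.5-fold higher and 1 at least 1.5-fold lower, where 3.99% of all genes were higher and 6.14% lower by that measure. FABP1 stood at 1.76, 2.15 and 4.37 CPM at the low, medium and high dose, a log2 difference of 1.28 from low to high, and PDK4 at 5.8, 6.47 and 11.4 CPM, a difference of 0.97. ACADS went down from 5.16 through 3.92 to 3.34 CPM, a difference of -0.62. CPT1A stood at 102.4, 105.7 and 126.1 CPM and ANGPTL4 at 4, 2 and 5 counts. In Sagunja-tang 0 of the 34 genes passed 1.5-fold, where 3.63% of all genes were higher and 5.11% lower. The largest difference there was FABP1, at 2.04, 2.3 and 2.76 CPM over the 3 doses, or 0.42 on the log2 scale.

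Other genes of lipid handling were read from lists drawn up by function. Of 13 tested genes among other PPAR targets, Cnidii Rhizoma at the high dose raised 7 and lowered 1, beside 11.5% of all genes higher and 11.4% lower, with a median log2 change of 0.24. The glycerol channels AQP3 and AQP7 rose by 0.72 (edgeR adjusted p = 3e-19) and 0.71 (adjusted p = 0.016), and the pantetheinase VNN1 fell by 0.68 on the log2 scale (adjusted p = 1.7e-10). Paeoniae Radix, with 3.52% of all genes lower at its high dose, lowered 4 of these 13 genes, among them AQP7 by 1.13 on the log2 scale (edgeR adjusted p = 0.0038), and raised 0. Astragali Radix at the high dose raised 3 and lowered 3, with a median of 0.40 that is the same with FGF21 at the bound given next. The hormone gene FGF21 had 0 counts in its 3 low-dose libraries and 10, 11 and 55 at the high dose, at least 46.3-fold higher against a floor of 3 counts over the low-dose group.

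Of 11 fatty acid synthesis genes, 7 were lower and 2 higher under Cnidii Rhizoma at the high dose, beside 11.4% and 11.5% of all genes, with a median log2 change of -0.18. The largest change in the list was a rise, that of ME1, and the list was not compared with the oxidation genes by a test. ACSS2, which makes acetyl-CoA from acetate, fell by 0.59 on the log2 scale (edgeR adjusted p = 4.8e-06), the desaturase FADS1 by 0.33 (adjusted p = 0.0086) and the fatty acid synthase FASN by 0.27 (adjusted p = 1.4e-06). ME1, the malic enzyme that supplies NADPH, rose by 1.01 ± 0.03 (adjusted p = 2.2e-28), and ELOVL6 by 0.27. In Paeoniae Radix 4 of the 11 genes were higher and 0 lower, ME1 first at 0.34 ± 0.03 (adjusted p = 1e-10). Of 13 lipid droplet and lipolysis genes Cnidii Rhizoma raised 4 and lowered 2, with PLIN4 at 0.93 ± 0.09 (adjusted p = 6e-12), CIDEC at 0.72 and the triglyceride synthesis enzyme DGAT2 at -0.54. Among 9 genes of fatty acid and carnitine entry 2 were higher, MLYCD at 0.32 and SLC27A4 at 0.19, and among 13 PPAR partners and coregulators 2 were higher and 3 lower. Of 12 other peroxisomal genes 4 were higher and 1 lower, and of 12 genes of branched-chain, propionate and ketone steps 2 were higher and 1 lower.

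In Astragali Radix at the high dose the lipid droplet list had 6 genes higher and 3 lower of 13, with a median log2 change of 0.62, beside 20.2% of all genes higher and 16.6% lower. The lipase inhibitor G0S2 rose by 2.52 ± 0.50 (edgeR adjusted p = 0.0083), the droplet coat protein PLIN3 by 2.06 ± 0.22 (adjusted p = 0.00092), CIDEC by 1.96 and ABHD5 by 1.56, and DGAT2 fell by 1.27 on the log2 scale (adjusted p = 0.0015). PPARGC1B, a coactivator of oxidation genes, went from 15.5, 16.4 and 14.3 CPM to 2.95, 2.25 and 1.89, a change of -2.69 ± 0.21 (adjusted p = 0.00039), while its partner receptor ESRRA rose by 1.18 ± 0.21 (adjusted p = 0.0057). These were the 2 called genes of the 13 partners and coregulators. The fatty acid transporter SLC27A4 rose by 1.56 and the carnitine acyltransferase of peroxisomes CROT fell by 1.42 on the log2 scale, in a list with 3 higher and 1 lower of 9. Fatty acid synthesis had 2 higher and 3 lower of 11, other peroxisomal genes 2 and 3 of 12, and branched-chain, propionate and ketone steps 1 and 3 of 12, against those same shares of all genes.

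For some of these genes the counts carry a further uncertainty, since the counting strand is not given in the sources used here and the gene overlaps a neighbour. ANGPTL4 overlaps RAB11B-AS1 on the other strand, and the same holds for HADHA with HADHB, CPT2 with CZIB, ETFDH with PPID and C4orf46, DECR1 with NBN, ACSL5 with ZDHHC6, ACOX3 with TRMT44 and ACAA1 with DLEC1. ACADM overlaps RABGGTB on the same strand.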

How the data were processed

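HT29 libraries were made with a directional kit and sequenced as paired ends of 100 bp, per the labels' protocols. FastQC 0.11.9, Trim Galore 0.6.5, STAR 2.7.3a and RSEM 1.3.3 with hg38 are named in the submitters' processing notes. The annotation release is not given in the sources used here, nor is the counting strand. The authors deposited expected counts per gene, of which 8.78% were not whole. They were rounded, with totals moving by at most 0.000184%. Of 273 columns 213 were not used. Names came from a supplied table (56558 entries) and GENCODE 29 (497), and 0.0504% of counts had no name.

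Genes were filtered with filterByExpr over 54 replicated libraries, scaled by TMM and tested with edgeR 4.0.16 (R 4.3.3) quasi-likelihood tests, with Benjamini-Hochberg adjusted p under 0.05. A fit of 51 libraries served 11 dose comparisons and the difference against 3 extracts. Astragali Radix high dose had its own fit of 6 libraries and a 12-library difference fit. For the formulas log2 CPM with a prior count of 2 was used. Alternatives were DESeq2 1.42.0, other sets of libraries, a block for the replicate number, library totals, no filter and leaving out each library. Pairing by replicate number was checked through deviations from group means. Every same-numbered pair correlated above 0.1 against the low dose for Paeoniae Radix high (0.163 to 0.313) and Rehmanniae Radix Preparata high (0.16 to 0.279). The same held for Cinnamomi Cortex high (0.186 to 0.261) and medium (0.182 to 0.411). In the other comparisons it did not, with values down to -0.223 for Rehmanniae Radix Preparata medium. The numbers may thus pair some libraries, a link read from the data and not the labels, and picked out after the correlations were seen. The main tests use no pairing, and the replicate block is an alternative.

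The genes, the other lists and the comparisons were chosen with earlier results of these data known. All 34 genes were to be given, called genes by size of change, FABP1, PDK4, ANGPTL4, PLIN2, CPT1A and the receptors always, and up to 4 called genes per other list. FGF21 and single genes outside this rule were chosen after their values were seen. Some genes of the lists are not reported by name here, and list counts and sums include them.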

Additional observations from a re-analysis of the deposited data

Results flagged for a closer look

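The tests of the difference between dose changes marked 18 of the 34 genes for Cnidii Rhizoma against the mean of Paeoniae Radix, Rehmanniae Radix Preparata and Cinnamomi Cortex. On the log2 scale the differences were 4.74 for ANGPTL4, 2.44 for FABP1, 1.79 for PDK4, 0.75 for PLIN2, 1.497 for ECI2, 0.72 for EHHADH, 0.67 for CPT1A, 0.41 for ACSL1 and 0.38 for ACSL5. They were 0.36 for ETFA, 0.35 for ACADVL, 0.32 for HSD17B4, 0.28 for ACADM, 0.28 for SLC25A20, 0.28 for PPARA, 0.26 for ETFB, 0.24 for PPARD and -0.24 for PPARG.

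The difference Astragali Radix minus Cnidii Rhizoma marked 12 genes. It was -3.86 for FABP1, -2.22 for EHHADH, -1.56 for ACADSB, -0.97 for CPT1A, -0.76 for HSD17B4, -0.73 for CPT2, -0.51 for ACAT1 and -0.46 for ACADM. It was 2.10 for PLIN2, 1.35 for PPARD, 0.75 for ECHS1 and 0.67 for ACOX3. Every group holds at most 3 libraries, and the gap-to-range comparison for 1 outlying library needs at least 4, so it was not made. The effect of leaving out each library was computed instead.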

How the results depend on the processing

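No call on a single gene changed direction in any of the analyses run: of 6287 single-gene values with an adjusted p, 5986 stayed on their side of the threshold, 189 lost and 112 gained a call. A further 37 had no adjusted p from DESeq2 and are not among them. The fit of all 54 replicated libraries adds the widely spread Astragali Radix high libraries. Numbers of called genes are given with the share of all genes called in brackets. They went from 20 (22.9%) to 14 (10.2%) for Cnidii Rhizoma high, where PPARA, PPARG, ACSL3, ETFB, HADH and ECI2 were lost. Cnidii Rhizoma medium went from 3 (2.93%) to 0 (0.211%), and Astragali Radix medium from 6 (15.9%) to 1 (4.18%). Paeoniae Radix high went from 7 (9.3%) to 1 (1.77%), and Angelicae Gigantis Radix high from 4 (1.12%) to 0 (0.0644%). Rehmanniae Radix Preparata high went from 3 (1.42%) to 0 (0.117%), and Cinnamomi Cortex high from 2 (5.64%) to 0 (0.281%). Astragali Radix high went from 12 (36.8%) to 28 (70.2%). The difference against 3 extracts went from 18 (16.9%) to 11 (5.78%). That between Astragali Radix and Cnidii Rhizoma went from 12 (34.9%) to 21 (57.9%). The share of all genes moved in the same direction as the count each time. With only the groups compared the counts were 4 for Paeoniae Radix high (4.81%) and 2 for Angelicae Gigantis Radix high (0.655%). They were 1 each for Rehmanniae Radix Preparata (0.895%) and Cinnamomi Cortex high (1.77%). Library totals gave 3 for Astragali Radix medium (16.1%) and 2 for Angelicae Gigantis Radix high (1.08%). Without the filter the counts were 5 for Cnidii Rhizoma medium (1.68%), 1 for Paeoniae Radix medium (1.12%) and 2 for Angelicae Gigantis Radix high (0.896%). DESeq2 gave 5 for Cnidii Rhizoma medium (3.12%) and 1 for Paeoniae Radix medium (0.825%). Leaving out single libraries gave 2 to 7 called genes for Astragali Radix medium, 4 to 7 for Paeoniae Radix high, 1 to 2 for Angelicae Gigantis Radix high, 1 to 1 for Cinnamomi Cortex high, 5 to 22 for Astragali Radix high, 18 to 20 for Cnidii Rhizoma high and 9 to 18 for the difference between the 2 extracts. The cause of these changes was not tested beyond the sets of libraries named.

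With the replicate block Paeoniae Radix medium had 1 called gene in place of 0, beside 0.62% of all genes in place of 0.41%. Cinnamomi Cortex high had 3 in place of 2 (ACSL3 was added), beside 6.89% in place of 5.64%. Cnidii Rhizoma medium had 4 in place of 3 (FABP1 was added), beside 3.64% in place of 2.93%. Astragali Radix high had 11 in place of 12 (ACSL1 and ETFDH were lost and ETFB was added), beside 32.8% in place of 36.8%. For Cnidii Rhizoma high the count with the block was 20, as without it, and the same-numbered pairs there correlated between -0.119 and 0.193. In Astragali Radix high they correlated between -0.0045 and 0.286, with 1 of 3 libraries closest to its own number. ANGPTL4 and ECI2 are limited by depth, with under 50 counts in every library.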
